A study of Homo sapiens with 15 samples.

Results

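The genes described here are 10 regulators of the step from G1 to S phase, taken by name: the D-type cyclin genes CCND1, CCND2 and CCND3, the E-type cyclin genes CCNE1 and CCNE2, the inhibitor genes CDKN1A, CDKN1B and CDKN2C, and the growth regulators MYC and MYCN. They are 10 of the 23346 gene symbols measured, and all 10 passed the filter on low counts that left 17401 genes for testing. CDKN2C was close to absent on days 0 and 1 and passed through its later days. The libraries come from H9, a human embryonic stem cell line in long use, on the way to definitive endoderm, the germ layer of gut, liver and pancreas. The day 0 group was undifferentiated cells in E8 medium. All later groups were in Advanced RPMI 1640 with activin A, and the differentiation began with activin A and the GSK3 inhibitor CHIR99021 together, so the day 1 group had just received both and the groups of days 2, 3 and 4 activin A alone afterwards. Day 0 thus differed from every later day in medium as well as in time, and the effects of medium and time cannot be told apart in a comparison with day 0. Each day had 3 polyA-selected bulk libraries, numbered 1, 2 and 4, which makes 15. Whether libraries of the same day were separate cultures is not stated in the labels. P-values therefore reflect only how far these samples spread, and that spread may be technical.

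As background, D-type cyclins bind the kinases CDK4 and CDK6 and E-type cyclins bind CDK2; both kinds of complex phosphorylate the retinoblastoma protein, which releases E2F factors that switch on genes of DNA replication. The p21 and p27 proteins, encoded by CDKN1A and CDKN1B, bind cyclin and kinase together, whereas p18, encoded by CDKN2C, binds CDK4 and CDK6. MYC and MYCN are transcription factors that dimerise with MAX and promote growth and ribosome production. Human embryonic stem cells are known for a short G1 phase.

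Total counts ran from 54723184 to 145857940 per library. Levels are CPM, the usual depth-scaled count, computed on TMM-scaled library sizes. Differences are log2 fold changes, positive where the later day is higher, each with an approximate standard error (SE). A gene was called changed at a Benjamini-Hochberg adjusted p under 0.05 in edgeR's quasi-likelihood test, adjusted over all 17401 genes. Among the defining markers SOX2, MIXL1 and SOX17 followed the labels, and others did so less closely. POU5F1, a pluripotency gene, had a mean of 449 CPM on day 0 and 411 on day 1. EOMES, a primitive streak gene, had its highest mean, 498 CPM, on day 2. The endoderm genes GATA6 and CER1 were already at 232 and 339 CPM on day 1. SOX2 had 201 ± 97.9 CPM on day 0 but 1.15 ± 0.538 on day 1. MIXL1, a primitive streak gene, reached 1197 ± 34.2 CPM on day 1. SOX17, an endoderm gene, had 0.656 ± 0.369 CPM on day 1 and 82.9 ± 14 on day 2 (mean ± SD, n = 3). The summed level of 6 endoderm markers was 4230 to 6188 CPM on day 2. It varied widely between libraries on days 3 and 4, from 1037 to 5574 and from 886 to 4338 CPM. CER1 was a large part of this sum, at 397 to 2683 CPM on day 4. Markers of other cell types also moved with the days. The summed level of 6 mesoderm markers was 121 to 226 CPM on day 0, mostly KDR, 298 to 392 on day 1, 167 to 543 on day 2, 111 to 559 on day 3 and 86.0 to 301 on day 4. Within it HAND1 had a mean of 0.990 CPM on day 0, 123 on day 2 and 139 on day 3. The summed level of 5 trophoblast and amnion markers was 0.704 to 1.77 CPM on day 0, 59.7 to 108 on day 1, mostly CDX2, and 18.0 to 80.5 on day 3 and 26.6 to 126 on day 4, mostly GATA3. The 4 extraembryonic endoderm markers summed to 3.14 to 8.80 CPM on day 0 and 24.5 to 62.6 on day 4, nearly all of the latter HNF4A. The others did not share its rise in size. AFP fell from a mean of 4.24 CPM on day 0 to 0.131 on day 4. SOX7 had means of 0.704 and 1.78 CPM, and TTR was at 0 in all 15 libraries. The 5 neural and surface ectoderm markers summed to 1.26 to 3.08 CPM on day 0 and 2.75 to 60.7 on day 4, nearly all of the latter PAX6, and 4 blood and endothelium markers summed to at most 3.24 CPM. Whether cells of these other types were present, and their part in the levels below, was not tested. In bulk RNA a change in how many cells use a gene cannot be told apart from a change in RNA per cell.

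Over the 5 days, 7 of the 10 genes changed by the joint test of all days, beside 37.3% of all genes tested. CCND1, CCND2, CCNE1, CDKN1B, CDKN2C, MYC and MYCN passed, while CCND3, CCNE2 and CDKN1A did not (adjusted p = 0.188, 0.141 and 0.131). CCNE2 passed this test with DESeq2 (adjusted p = 0.0494) and without day 4 replicate 1 (0.0408), and CDKN1A passed it without day 2 replicate 4 (0.023). The 7 genes followed different courses. MYCN fell on the first day, CCND1 rose on the first day and fell on the next, CDKN1B and CDKN2C rose between days 1 and 2, and CCNE1 fell and CCND2 rose between days 2 and 3. The joint call of MYC was marginal, with an adjusted p of 0.0296, and was lost when any of many single libraries was left out. These were the libraries of days 0 and 1, replicates 1 and 2 of day 2 and replicate 2 of day 4. The adjusted p was then between 0.0535 and 0.13.

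**Figure D1:**
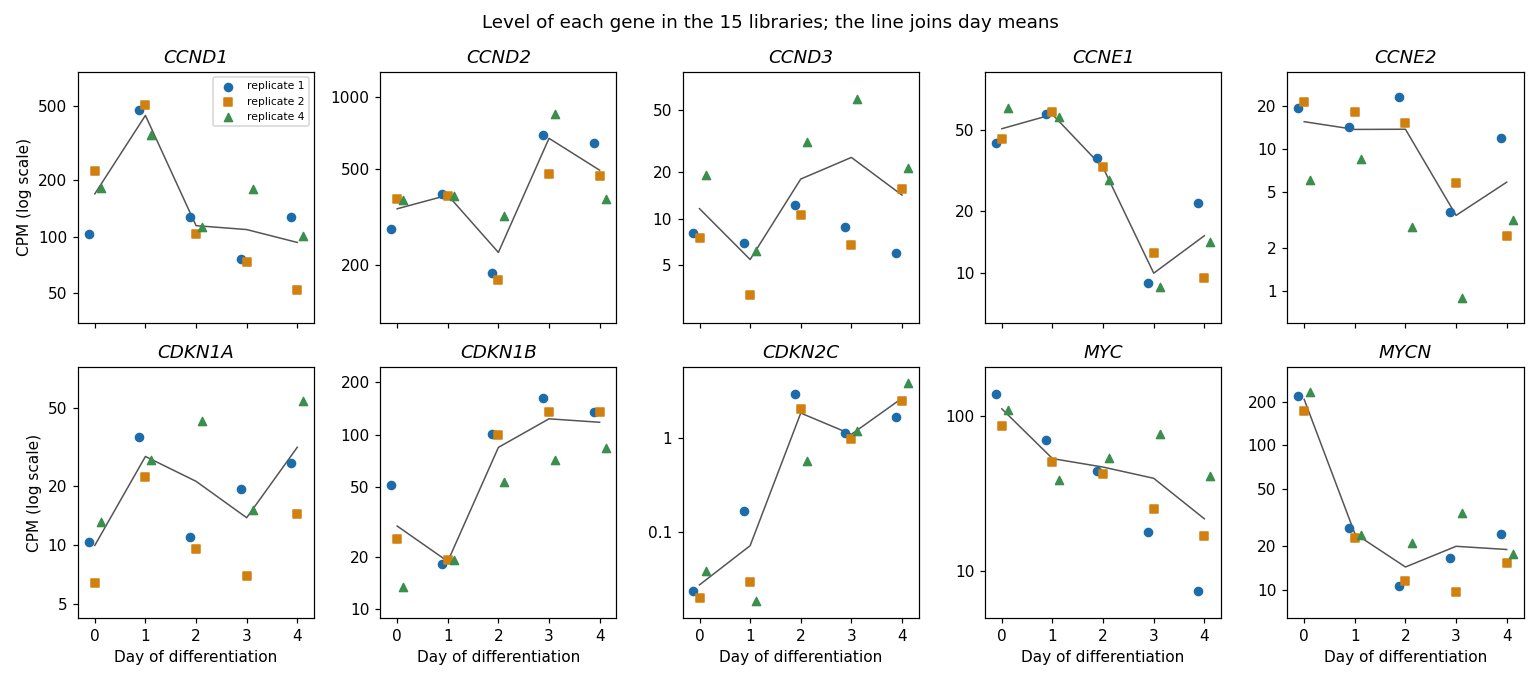
CPM of each of the 10 genes (log scale, own axis per gene) against day of differentiation; each point is a library, marked by replicate number, and the line joins the 3-library means. MYCN stands at 173 to 232 CPM on day 0 and at 9.55 to 33.8 on all later days, and CDKN1B is at 53.6 to 163 CPM from day 2 on.

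CCND1, the cyclin D1 gene and a known target of Wnt signalling, was highest on day 1. Its 3 libraries held 103, 224 and 182 CPM on day 0 and 479.9, 511 and 351 CPM on day 1, so that every day 1 library exceeded every day 0 library. On day 2 they were at 127, 103 and 113 CPM, close together and below all those of day 1. The rise of day 1 was 2.64-fold (log2 fold change 1.40, SE 0.41, adjusted p = 0.0379) and the drop of day 2 was 3.91-fold (log2 fold change -1.97, SE 0.41, adjusted p = 0.00755). The rise rested on all 6 libraries: without any of them it was 1.15 to 1.64 on the log2 scale with adjusted p from 0.051 to 0.159. The drop did not pass without day 2 replicate 2 (log2 fold change -1.86, adjusted p = 0.0514). Ordered by mean, day 1 was followed by days 0, 2, 3 and 4, and each neighbouring pair below day 1 overlapped. The values on day 3 were 75.5, 72.5 and 179 CPM, and on day 4 they were 127, 51.6 and 101 CPM. Day 4 against day 0 did not pass (log2 fold change -0.87, SE 0.40, adjusted p = 0.106).

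CCND2, the cyclin D2 gene, moved on another schedule. Its libraries held 282, 376 and 372 CPM on day 0, and 396, 389 and 389 CPM on day 1. On day 2 they were at 186, 173 and 320.0 CPM and on day 3 at 696, 477 and 847 CPM. All day 3 libraries were thus above all day 2 libraries, by 2.97-fold in the fit (log2 fold change 1.57, SE 0.31, adjusted p = 0.0258). That call was lost without day 2 replicate 1 or 2 or day 3 replicate 1 or 4 (log2 fold change 1.38 to 1.55, adjusted p from 0.0544 to 0.182). On day 4 the values were 644, 468 and 378 CPM, above all of day 0, but the difference from day 0 did not pass (log2 fold change 0.53, SE 0.30, adjusted p = 0.187). The order of means was days 3, 4, 1, 0 and 2, and only days 1 and 0 did not overlap among neighbours in that order. The value of day 2 against day 1 (log2 fold change -0.79, SE 0.30, adjusted p = 0.13) passed without day 2 replicate 4 (-1.12, adjusted p = 0.0406). RefSeq lists an antisense gene, CCND2-AS1, whose span overlaps CCND2; without knowing whether the counting used strand, its reads cannot be told apart from those of CCND2.

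CCND3, the cyclin D3 gene, was the lowest of the 3 per length and passed in no comparison. Its day means were 11.6 ± 6.56, 5.45 ± 1.98, 18 ± 11.3, 24.8 ± 29.5 and 14.2 ± 7.65 CPM from day 0 to day 4 (SD, n = 3). On day 3 its libraries were at 8.79, 6.79 and 58.8 CPM, with replicate 4 far above the others. Replicate 4 was the highest of its day on 4 of the 5 days. In the order of means, days 3, 2, 4, 0 and 1, only days 0 and 1 did not overlap. Without day 3 replicate 4 the estimate of day 3 against day 2 turned from 0.46 to -1.20 on the log2 scale (adjusted p = 0.83 and 0.469).

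Levels of different genes were compared per kilobase of transcript, with the longest protein-coding transcript of each gene in GENCODE release 29, which is not the authors' annotation. On that scale CCND1 made up 39.6% of the D cyclin level on day 0, with a range of 33.8% to 45.9%, and CCND2 made up 55.4%, with a range of 51.3% to 61.5%. On day 1 the order was reversed: CCND1 held 56.5% to 65.9% and CCND2 33.3% to 41.7%. On day 3 CCND2 held 66.4% to 83.5% and on day 4 64.5% to 79.6%. The ratio of CCND2 to CCND1 counts within a library, which does not depend on library scaling, was 1.68 to 2.74 on day 0, 0.761 to 1.11 on day 1, 1.47 to 2.83 on day 2, 4.73 to 9.22 on day 3 and 3.76 to 9.06 on day 4. The ranges of days 0, 1 and 3 did not overlap each other.

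**Figure D2:**
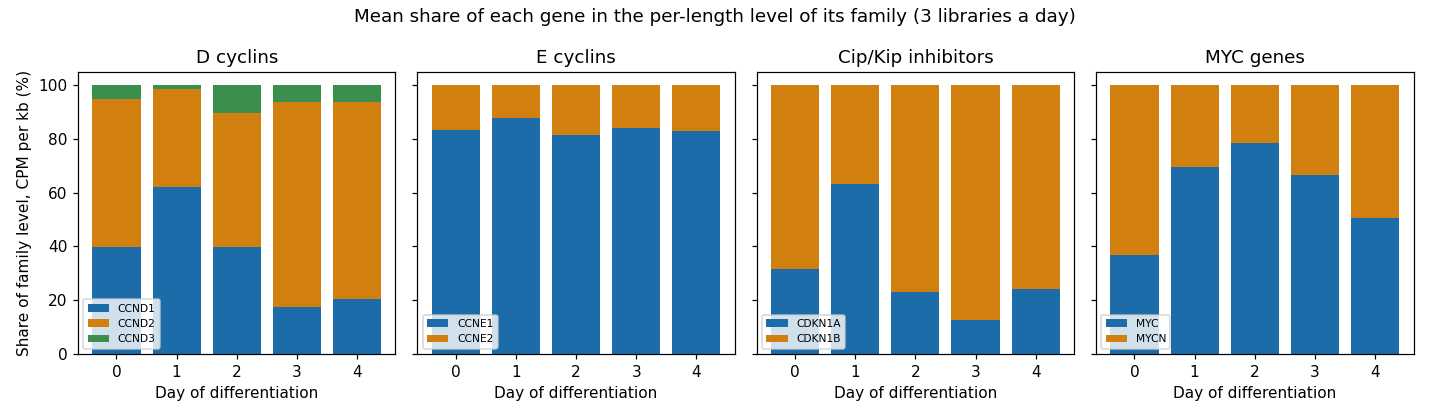
Mean share (percent) of each gene in the summed CPM per kilobase of its family on each day, for D cyclins, E cyclins, the inhibitors CDKN1A and CDKN1B, and the MYC genes; bars are means of 3 libraries. CCND1 is the larger part of the D cyclins on day 1 and CCND2 on days 3 and 4, whereas CCNE1 is the larger part of the E cyclins on every day.

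CCNE1, the cyclin E1 gene, fell late. Its libraries held 43.1, 44.8 and 63.8 CPM on day 0, 59.4, 60.7 and 58 CPM on day 1 and 36.3, 33.1 and 28.6 CPM on day 2. On day 3 they held 8.93, 12.5 and 8.59 CPM and on day 4 22.1, 9.44 and 14.1 CPM. All libraries of days 3 and 4 were below all libraries of days 0, 1 and 2. The step from day 2 to day 3 was a 3.27-fold drop (log2 fold change -1.71, SE 0.32, adjusted p = 0.0216), and day 4 was 3.32-fold below day 0 (log2 fold change -1.73, SE 0.32, adjusted p = 7.97e-04). The call of day 3 against day 2 was lost without day 2 replicate 1 or 2 or day 3 replicate 1 (log2 fold change -1.62 to -1.72, adjusted p from 0.104 to 0.124), whereas day 4 against day 0 passed without each of its 6 libraries in turn. In the order of means, days 1, 0, 2, 4 and 3, the libraries of days 0 and 2 did not overlap, nor did those of days 2 and 4.

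CCNE2, the cyclin E2 gene, passed in no comparison, and its libraries differed within every day. It was at 19.3, 21.3 and 6.03 CPM on day 0, 14.4, 18.2 and 8.53 CPM on day 1, 23.2, 15.2 and 2.82 CPM on day 2, 3.59, 5.74 and 0.898 CPM on day 3 and 11.9, 2.44 and 3.14 CPM on day 4. Replicate 4 was the lowest of its day on 4 of the 5 days. Day 4 against day 0 gave a log2 fold change of -1.41 (SE 0.79, adjusted p = 0.177), and -2.40 with adjusted p = 0.0384 without day 4 replicate 1. On the per-length scale CCNE1 held 71.9% to 94.5% of the E cyclin level over all 15 libraries. The log2 ratio of CCNE2 to CCNE1 counts had day means between -2.18 and -1.67, closer together than the libraries within a day.

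Among the inhibitors, CDKN1B, the p27 gene, rose between days 1 and 2. Its libraries held 51.5, 25.2 and 13.4 CPM on day 0 and 18.1, 19.3 and 19.1 CPM on day 1. On day 2 they held 101, 99.5 and 53.6 CPM, on day 3 163, 136 and 71.6 CPM and on day 4 135, 135 and 84.5 CPM. All libraries from day 2 on were thus above all those of days 0 and 1. The step was 4.50-fold (log2 fold change 2.17, SE 0.45, adjusted p = 0.00654), and day 4 was 3.93-fold above day 0 (log2 fold change 1.98, SE 0.44, adjusted p = 0.00329). Both calls held without each of the 6 libraries compared, and the difference of day 4 from day 0 was 1.67 to 2.65 on the log2 scale, the latter without day 0 replicate 1. Replicate 4 was the lowest library on 4 of the 5 days, and days 3, 4 and 2, the highest in that order, overlapped.

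The promoter of CDKN1B is shown because this gene had the largest gain in CPM among the inhibitors. The RefSeq table holds start sites for 6 of the 10 genes, and the 250 bases before each start were searched on both strands for short words known from binding sites. For E2F factors these were TTTGGCGC, TTTCCCGC, TTTGCCGC and TTTCGCGC. For TCF/LEF factors the search used CTTTGAT and also CTTTGAA, and for forkhead factors TGTTTAC and also TGTTTGC. The E-box was CACGTG, the TATA word was TATAAA, and the CCAAT box was read as its name spells it. CDKN1B has CCAAT at positions -174 and -50 from its start and none of the other words; 32% of 35116 such windows hold CCAAT. Below, 5′ to 3′ on the plus strand, chr12:12717118-12717367 of GRCh38.p14, with CCAAT in capitals.
CDKN1B: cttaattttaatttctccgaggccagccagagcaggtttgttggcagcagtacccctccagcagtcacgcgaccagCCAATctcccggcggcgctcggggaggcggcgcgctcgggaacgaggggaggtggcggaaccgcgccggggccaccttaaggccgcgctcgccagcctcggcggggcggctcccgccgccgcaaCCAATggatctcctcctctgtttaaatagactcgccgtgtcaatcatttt

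CDKN2C, the p18 gene, went from near absence to a low level. All its counts are even, so they were divided by 2 into read pairs; the 3 libraries of a day together held 4 on day 0, 8 on day 1, 263 on day 2, 165 on day 3 and 320 on day 4. On the CPM scale the libraries of day 0 were at 0.0199 to 0.0381, those of day 1 at 0.0181 to 0.166, those of day 2 at 0.575 to 2.95, those of day 3 at 0.991 to 1.19 and those of day 4 at 1.67 to 3.85. Every library from day 2 on was above every earlier library. The pooled level on day 2 was 31.5 times that on day 1 (95% interval 15.8 to 73.8, exact, counting error only), and edgeR called the step (adjusted p = 0.0018). Day 4 was 89.8 times day 0 (95% interval 34.7 to 332; edgeR adjusted p = 6.95e-05). Both calls held without each library compared. The fitted log2 fold change of day 2 against day 1, which depends on the prior count, was 4.73 with all libraries and 4.24 to 6.28 without each in turn, the last without day 1 replicate 1. On day 1 against day 0 the ratio was 2.32 with an interval of 0.621 to 10.5, and most of the day 1 count came from replicate 1.

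CDKN1A, the p21 gene and a known p53 target, was variable. Its libraries held 10.3, 6.34 and 13.1 CPM on day 0, 35.5, 22.1 and 26.9 CPM on day 1, 11 and 9.51 CPM in replicates 1 and 2 of day 2 against 42.7 in replicate 4, 19.1, 6.94 and 15.1 CPM on day 3, and 26.1, 14.4 and 53.8 CPM on day 4. All libraries of days 1 and 4 were above all of day 0, and replicate 2 was the lowest library of its day on 5 of 5 days. Day 4 was 3.17-fold above day 0 (log2 fold change 1.66, SE 0.59, adjusted p = 0.0408), a call lost without day 0 replicate 1, day 0 replicate 2 or day 4 replicate 4 (log2 fold change 1.72, 1.47 and 1.04, adjusted p = 0.1, 0.132 and 0.222). Day 1 against day 0 did not pass (log2 fold change 1.51, SE 0.59, adjusted p = 0.125), and it passed with the spread taken from these days alone (1.50, adjusted p = 0.0153). Within a library, CDKN1A counts were 1.15 to 1.96 times those of CDKN1B on day 1 and 0.0511 to 0.974 times on all other days, so that the larger of the counts was CDKN1A on day 1 only among these 15 libraries. Per length this did not hold. CDKN1A held 57.4% to 69.7% of the level of both genes on day 1, but also up to 53.3% on day 0.

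MYCN had the largest fall of the 10 genes. Its libraries held 219, 173 and 232 CPM on day 0 and 26.9, 22.7 and 23.8 CPM on day 1, an 8.50-fold drop (log2 fold change -3.09, SE 0.42, adjusted p = 1.83e-04). They held 10.5, 11.5 and 21 CPM on day 2, 16.5, 9.55 and 33.8 CPM on day 3 and 24.1, 15.2 and 17.6 CPM on day 4. The highest later library, at 33.8 CPM, was below the lowest day 0 library, at 173 CPM, and the days after the drop overlapped in order of mean, days 1, 3, 4 and 2. Day 4 was 11-fold below day 0 (log2 fold change -3.45, SE 0.43, adjusted p = 3.30e-05). Both calls held without each library compared. The antisense gene MYCNOS, whose span overlaps MYCN in RefSeq, had 0 to 250 counts, at most 2.81% of those of MYCN in the same library.

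The promoter of MYCN is shown for its E2F words. It holds TTTGGCGC at position -176 from the start, overlapped by TTTCGCGC on the opposite strand at -172, and CTTTGAA on the opposite strand at -10. Of 35116 windows of the same length, 2.79% hold an E2F word and 5.94% a TCF/LEF word. MYCN was the only gene with an E2F word among the 6 with a window. The window of CCNE1 held none of the words searched. A search for exact words in 250 bases cannot show that binding sites are absent. CACGTG occurred in separate windows of CDKN2C, at -220 and at -69, and 6.34% of all windows hold it. CCAAT also occurred in windows of CDKN2C and CCND3. Below, 5′ to 3′ on the plus strand, chr2:15940300-15940549 of GRCh38.p14, with the matched letters in capitals.
MYCN: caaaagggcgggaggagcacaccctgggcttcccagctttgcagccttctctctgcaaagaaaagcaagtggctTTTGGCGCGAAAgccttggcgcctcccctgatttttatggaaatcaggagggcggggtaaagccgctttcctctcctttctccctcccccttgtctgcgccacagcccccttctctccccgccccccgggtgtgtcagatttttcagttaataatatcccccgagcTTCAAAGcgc

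MYC fell over a longer time and with more spread. Its libraries held 137, 86 and 108 CPM on day 0 and 69.7, 50.2 and 38.7 CPM on day 1, so that all day 1 libraries were below all day 0 libraries, but this difference did not pass (log2 fold change -1.06, SE 0.55, adjusted p = 0.257). They held 44.2, 42 and 53.7 CPM on day 2. On day 3 replicate 4 was at 75.7 CPM against 17.7 and 25 in replicates 1 and 2, and on day 4 it was at 40.7 CPM against 7.48 and 16.8. Day 4 was 5.10-fold below day 0 (log2 fold change -2.35, SE 0.57, adjusted p = 0.00557), a call that held without each library compared. Leaving out replicate 4 of day 4 gave -3.16, and leaving out replicate 1 of that day gave -1.86. The means descended in the order of days 0, 1, 2, 3 and 4, and every neighbouring pair after day 0 and day 1 overlapped.

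Within a library, the ratio of MYCN to MYC counts was 1.60 to 2.14 on day 0, 0.386 to 0.615 on day 1, 0.238 to 0.391 on day 2 and 0.382 to 0.93 on day 3. On day 4 it ran from 0.431 in replicate 4 to 3.23 in replicate 1. Every library of days 1, 2 and 3 was below every library of day 0 in this ratio. Per length, MYCN made up 59.2% to 66.1% of the level of both genes on day 0 and 17.8% to 26.2% on day 2.

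**Figure D3:**
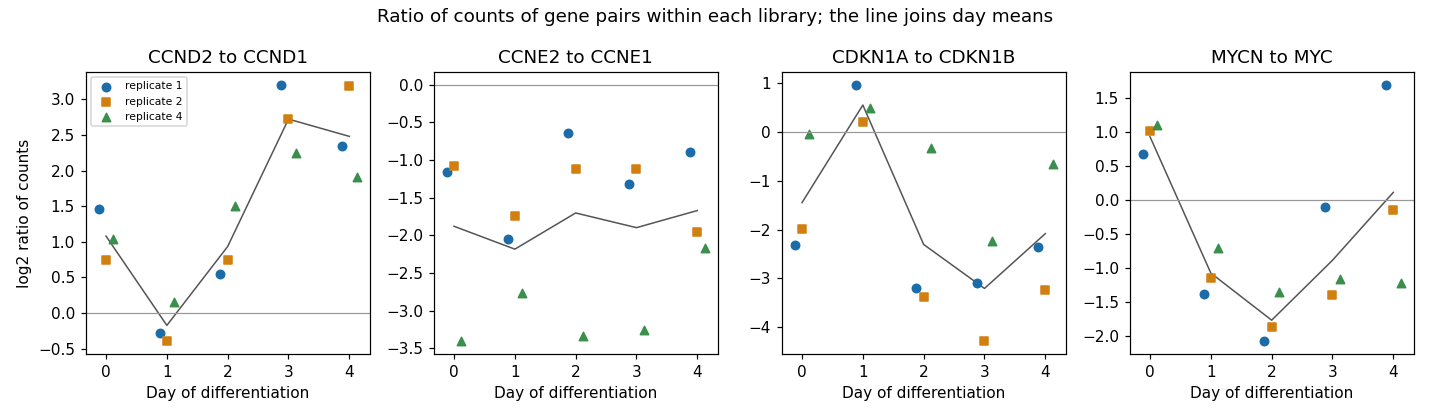
log2 ratio of the counts of gene pairs within each library against day; points are libraries marked by replicate number, and the line joins day means. CCND2 to CCND1 is lowest on day 1, CDKN1A to CDKN1B is above 0 on day 1, and MYCN to MYC is above 0 in all day 0 libraries and spreads widely on day 4.

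By comparison, on day 1 against day 0, 1 of the 10 genes rose and 1 fell, beside 5.49% and 4.88% of all genes (10.4% in either direction). On day 2 against day 1, 2 rose and 1 fell, beside 4.93% and 3.34% of all genes (8.27% in either direction). On day 3 against day 2, 1 rose and 1 fell, beside 0.661% and 0.287% of all genes (0.948% in either direction). Between days 3 and 4 edgeR called 0 of the 10, beside 0% of all genes; 0 of the 10 had an unadjusted p under 0.05, beside 1074 of all genes, and DESeq2 called 0 of the 10 and 66 of all genes. On day 4 against day 0, 3 rose (CDKN1A, CDKN1B and CDKN2C) and 3 fell (CCNE1, MYC and MYCN), beside 18% and 16.2% of all genes (34.2% in either direction). The median log2 fold change of the 10 genes was -0.29 in this last comparison, beside -0.02 for all genes. Counted by libraries that did not overlap between the days, 3 of the 10 were higher and 3 lower on day 1, beside 15.8% and 14.1% of all genes. On day 2 these counts were 3 and 4, beside 17.2% and 18.5%. On day 3 they were 1 and 1, beside 9.1% and 8.75%. Day 4 against day 3 gave 1 and 0, beside 4.95% and 4.32%, and day 4 against day 0 gave 4 and 3, beside 21.1% and 19.5%. In this last comparison the genes not called were CCND2, CCND3, CCND1 and CCNE2, at 0.53, 0.29, -0.87 and -1.41. The call of CDKN1A was lost without some single libraries. CCND2, though not called, was among the genes higher without overlap. With so few genes these counts do not show that inhibitors and cyclins differ as classes.

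**Figure D4:**
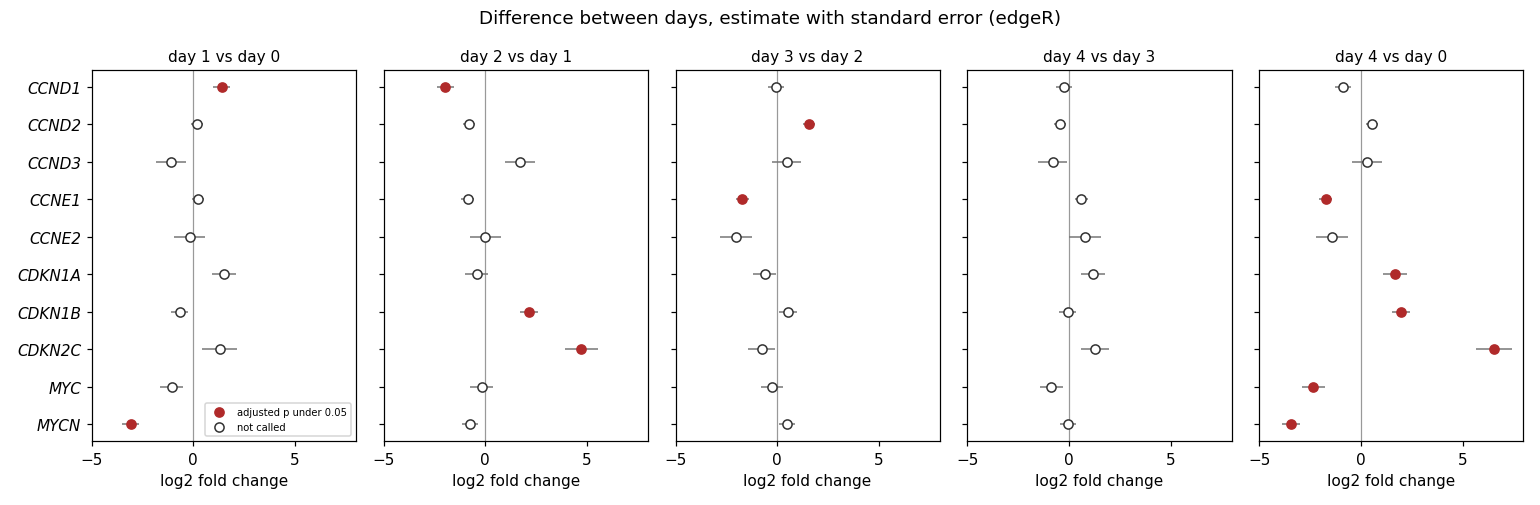
log2 fold change (later day minus earlier day) of each gene in 5 comparisons, with bars of 1 approximate SE; filled points passed an adjusted p of 0.05 in edgeR. Filled points lie on both sides of 0 in each comparison except day 4 vs day 3, which has none.

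Other genes of the pathway were read from 9 lists of textbook members, here for day 4 against day 0 unless said, where 18% of all genes rose, 16.2% fell and the median log2 fold change was -0.02. Of 11 kinases and partners of G1 and S phase, 0 rose, 6 (54.5%) fell and 5 were not called, with a median log2 fold change of -0.75. They included the cyclin A1 gene CCNA1 (-2.31, SE 0.65), the kinase subunit gene CKS2 (-1.82, SE 0.50) and MNAT1, a part of the CDK-activating kinase (-1.51, SE 0.41). CCNA1 was low throughout this comparison, at 0.986 ± 0.401 CPM on day 0 and 0.195 ± 0.145 on day 4. The cyclin A2 gene CCNA2 was not called (-0.66, SE 0.25, edgeR adjusted p = 0.0513). Of this list 3 fell without day 0 replicate 1 or without day 4 replicate 2, and 1 rose without day 0 replicate 2. CKS2 was at -0.69 and MNAT1 at -0.79 without day 0 replicate 1, neither called. CKS2 was also not called without day 4 replicate 2, nor CCNA1 without day 4 replicate 2 or 4; CCNA1 was at -2.99 without day 4 replicate 1. Among 4 other CDK inhibitors, 2 rose and 2 were not called. CDKN1C, the p57 gene, was at 8.24 ± 3.85 and then 62.7 ± 16 CPM (adjusted p = 1.34e-04), and CDKN2B, the p15 gene, from 0.0269 ± 0.0287 to 2.06 ± 0.789 CPM (adjusted p = 4.68e-04; SD, n = 3), both without overlap between the libraries of these days. The day 0 mean of CDKN2B was below what 3 counts give in a day 0 library, 0.0284 to 0.0316 CPM, so it passed the low-count filter through its later days. It overlaps the antisense gene CDKN2B-AS1, whose reads cannot be told apart from its own here. Of 13 pocket protein and E2F genes, 0 rose, 4 (30.8%) fell and 9 were not called, with a median of -0.50. TFDP2, a dimer partner of E2F factors, fell by 1.67 on the log2 scale (SE 0.26), and E2F7 and E2F3 were at -1.45 and -1.34 (SE 0.48 and 0.39). Without day 0 replicate 2, day 4 replicate 2 or day 4 replicate 4 1 of the 13 fell, and E2F7 and E2F3 were not called; without day 0 replicate 2, 1 rose.

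Of 25 E2F target genes of S phase, 0 rose, 16 (64%) fell and 9 were not called, with a median log2 fold change of -1.30. RRM2, a subunit of ribonucleotide reductase, went from 296 ± 90.9 to 65.1 ± 12.5 CPM, the replicative helicase gene MCM4 from 688 ± 153 to 156 ± 86.9 CPM and the origin licensing gene CDC6 from 220.1 ± 17.5 to 61.6 ± 21.7 CPM (n = 3). On day 1 against day 0 the list had 0 calls, beside 10.4% of all genes. It had 2 genes with an unadjusted p under 0.05, 0 calls by DESeq2, and 1 call in each direction without day 0 replicate 4. On day 3 against day 2 6 (24%) fell, at a median of -1.24, beside 0.287% of all genes. The count of 6 became 0 or 1 without day 2 replicate 1, day 2 replicate 2, day 3 replicate 1 or day 3 replicate 4. The summed level of the list was 4933 ± 377 CPM on day 0, 4839 ± 596 on day 1, 3547 ± 464 on day 2, 1589 ± 157 on day 3 and 1879 ± 465 on day 4. Its mean was lowest on day 3, as was that of CCNE1, but in both the libraries of days 3 and 4 overlapped. The list summed to 1458 to 1763 CPM on day 3 and 1389 to 2315 on day 4. Of 25 mitosis genes, 1 (4%) rose, 6 (24%) fell and 18 were not called, with a median of -0.60, beside 18% and 16.2% of all genes. MAD2L1 and KIF11 (-1.84 and -1.40, SE 0.50 and 0.43) act on the spindle, as does BUB1B (-1.39, SE 0.29). In this list 2 fell without day 0 replicate 1, day 4 replicate 2 or day 4 replicate 4, and 0 rose without day 4 replicate 2. MAD2L1 was not called without day 0 replicate 1 or day 4 replicate 2, nor KIF11 without replicate 1 or 2 of day 0 or replicate 2 or 4 of day 4. Without day 0 replicate 1 MAD2L1 was at -0.98.

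Of 25 MYC target genes of ribosome and nucleotide synthesis, 0 rose, 15 (60%) fell and 10 were not called on day 4 against day 0, with a median log2 fold change of -1.50; 1 rose without day 4 replicate 1. POLR1B, a subunit of RNA polymerase I, went from 136 ± 31.4 to 26.3 ± 9.44 CPM, WDR43, a ribosome assembly gene, from 182 ± 58.1 to 35.9 ± 12.8 CPM and NPM1, a nucleolar protein gene, from 4743 ± 2615 to 983 ± 66.5 CPM (n = 3). NPM1 has near-identical pseudogenes, so its level is uncertain. On day 1 against day 0, 1 of the 25 (4%) rose, 0 fell and the median was 0.07. These counts lie near the shares over all genes, 5.49% and 4.88%. Without day 0 replicate 4, 3 rose and 2 fell. On day 2 against day 1 7 (28%) fell, with a median of -0.73, beside 3.34% of all genes. The count of 7 became 3 or 4 without replicate 1, 2 or 4 of day 1 or replicate 1 or 2 of day 2. The summed level of this list was 11624 ± 2166 CPM on day 0, 13608 ± 1194 on day 1, 8221 ± 1526 on day 2, 4991 ± 1055 on day 3 and 4556 ± 651 on day 4. Genes of high level weigh most in this sum, and NPM1, at 4743 ± 2615 CPM, was a large part of it on day 0. ODC1 was the gene that rose on day 1 (log2 fold change 2.81, SE 0.32), and it fell on day 2 (-2.96, SE 0.32). The sum is therefore not the course of each gene in the list. Of 9 measured partners and antagonists of MYC, 2 (22.2%) rose, 1 (11.1%) fell and 6 were not called. These are counts of few genes that lie near the shares over all genes, 18% and 16.2%. The antagonist genes MXI1 and MXD4 rose by 2.34 and 2.04 on the log2 scale (SE 0.36 and 0.34), and MAX, the common partner, fell by 1.18 (SE 0.30). Other antagonist genes, MXD1, MXD3, MNT and MGA, were at -0.10, 1.23, 0.15 and -0.40 and not called.

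Of 22 p53 target genes other than CDKN1A, 5 (22.7%) rose, 2 (9.09%) fell and 15 were not called, with a median of 0.74, beside 18% and 16.2% of all genes. The antiproliferative gene BTG2 went from 3.25 ± 0.764 to 83 ± 28.1 CPM and the growth arrest gene GADD45A from 26.6 ± 13.6 to 174 ± 76.4 CPM (n = 3); the secreted factor gene GDF15 was at 3.55 (SE 1.21) on the log2 scale, not called without day 0 replicate 1 or 2 or day 4 replicate 2 or 4 and at 4.19 without day 0 replicate 4. The count that rose was 3 without any of the former 4 libraries and 9 without day 0 replicate 4. The count that fell was 0 without day 0 replicate 1 or day 4 replicate 2. Of 8 genes of ubiquitin ligases and related factors for cyclin E, p27 and MYC, 1 (12.5%) rose, 2 (25%) fell and 5 were not called, counts of few genes that lie near the shares over all genes. CUL1, the scaffold of the SCF ligase, fell by 1.32 on the log2 scale (SE 0.23), with USP28 at -0.72 (SE 0.27) and AMBRA1 at 1.09 (SE 0.32). The call of USP28 was lost without day 0 replicate 2 or any library of day 4, and that of AMBRA1 without day 0 replicate 1 or day 4 replicate 2 or 4.

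**Figure D5:**
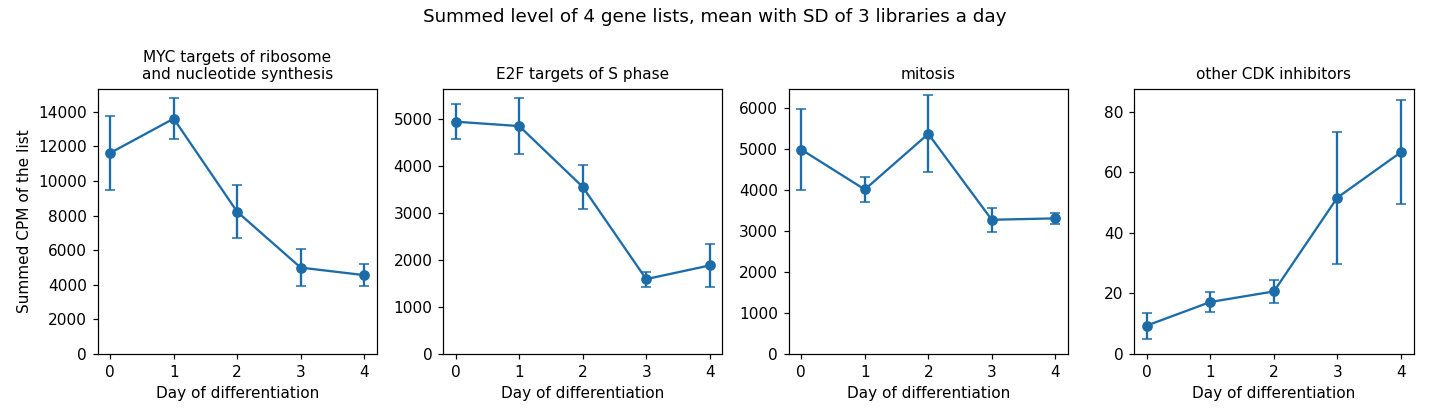
Summed CPM of 4 gene lists against day, as mean with SD of 3 libraries. The MYC target list and the S phase list fall after day 1, the mitosis list has its highest mean, 5363 CPM, on day 2, and the other CDK inhibitors sum to 9.37 CPM on day 0 and 66.6 CPM on day 4.

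Among the 10777 other genes that averaged 5 CPM or more, the profiles most like those of the 10 genes were found by Pearson's r of log2 CPM over the 15 libraries, which share depth and library effects; these values describe and carry no test. CCNE1 was most like CDC6 (r = 0.984) and the exonuclease gene EXO1 (r = 0.975). CCNE2 was not: its nearest were the protease gene ZMPSTE24 (r = 0.98) and BZW1 (r = 0.979). CDKN1B was nearest to YPEL5 (r = 0.974) and MXI1 (r = 0.971), and CDKN2C to the repressor gene PRDM1 (r = 0.968), which had 2.52 CPM on day 1 and 72.2 on day 2. CDKN1A was nearest to CLDN23 (r = 0.852) and the p53 target DDB2 (r = 0.85). MYCN was nearest to SCNN1A (r = 0.97), which had 172 CPM on day 0 and 23 on day 1, and AIM1 (r = 0.967). MYC was nearest to BCL11A (r = 0.925) and the pluripotency gene NANOG (r = 0.906). CCND1 was nearest to LMO7 (r = 0.952), which had 74.3 CPM on day 1 against 11.8 on day 0 and 8.41 on day 2, and DCAF4 (r = 0.937). CCND2 was nearest to ICAM1 (r = 0.892) and IRS2 (r = 0.89), and CCND3 to PLAUR (r = 0.937).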

How the data were processed

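RNA of 15 bulk polyA libraries, 3 on each of 5 days, was measured by sequencing. The deposited table holds raw counts per gene symbol, not normalized. TopHat2 2.0.14 and build hg19 are named per the submitters' processing notes; the counting program, annotation and strand setting were not given in the sources used here. All counts are even. Of 23398 entries, 44 identical repeats were dropped and 8 entries of repeated symbols were summed, which left 23346 symbols, 2605 of them without a count. Total counts of 54723184 to 145857940 set the depth, and intervals cover counting error only.

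Counts were scaled by TMM, filtered by edgeR's filterByExpr with day as group, and tested with edgeR 4.0.16 (R 4.3.3) by the quasi-likelihood test, with a mean per day over all libraries (10 residual degrees of freedom) and Benjamini-Hochberg adjustment over 17401 genes. The common biological coefficient of variation was 45.6%. The SE was derived from the log2 fold change and the F statistic (its size over the root of F). Counts were simulated for day 4 against day 0 on 17401 genes, with 100 changed 2-fold and 100 changed 4-fold. There edgeR recovered 1% of 2-fold and 29% of 4-fold changes and called 0 unchanged genes. DESeq2 1.42.0 recovered 8% and 70% and called 30. In the real comparison edgeR called 5948 genes, and the adjustment is stricter where few genes change. The simulated shares therefore do not give the recovery in the real data.

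The genes, the 9 lists and the tests were chosen with earlier results of these data known. From each list at most the 3 called genes of largest change were named, in the comparison with most calls, and 2 genes of most similar profile for each of the 10, of which the second for CCND3 and for CDKN2C is not reported here. Alternatives were DESeq2 size factors, library totals, no filter, DESeq2, a replicate block, fitting the compared days alone, counts divided by 2, and libraries left out. Promoter sequences are from RefSeq on GRCh38.p14 and were not joined to the files' coordinates.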

Additional observations from a re-analysis of the deposited data

How the results depend on the processing

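The 60 tests of the 10 genes kept direction and call under DESeq2 size factors and without the low-count filter; with DESeq2, 58 did and 2 more passed. The calls of MYCN on day 1, CDKN1B and CDKN2C on day 2, and CCNE1, CDKN1B, CDKN2C, MYC and MYCN on day 4 against day 0 held in every alternative. The genes that rose on day 1 numbered 2 with the replicate block and 2 in the fit of only the days compared, and 0 without each library in turn (range 0 to 0). Those that fell on day 2 numbered 2 with DESeq2 and 2 in the fit of only the days compared (0 to 2 without each library). On day 3, 0 rose and 0 fell in the fit of only these days and without replicate 1 of days 3 and 4 (0 to 1 without each library). Signs of small, uncalled log2 fold changes turned: for CCNE2, day 1 to 0.0092 with the block and day 2 to -0.063 with library totals, -0.37 with the block, -0.0048 in the fit of only these days and -0.0012 with counts divided by 2; without replicate 1 of days 3 and 4, CCND1 on day 3 to 0.14, MYC on day 3 to 0.12, CCNE2 on day 4 against day 3 to -0.22 and CDKN1B to 0.094; MYCN on day 4 against day 3 to 0.0067 with library totals and 0.051 with the block. The cause was not tested. Leaving out each library also turned signs of uncalled values. On day 1 against day 0, CCNE2 ran from -0.55 to 0.10 and CDKN2C from -0.23 to 1.80. On day 2 against day 1, CCNE2 ran from -0.59 to 0.50 and MYC from -0.33 to 0.092. On day 3 against day 2, CCND1 ran from -0.62 to 0.16, CCND3 from -1.20 to 1.17, CDKN1A from -0.98 to 0.46, MYC from -1.12 to 0.12 and MYCN from -0.13 to 0.91. On day 4 against day 3, CCND1 ran from -0.48 to 0.34, CCND3 from -1.24 to 0.89, CCNE2 from -0.24 to 1.36, CDKN1B from -0.34 to 0.19, MYC from -1.71 to 0.056 and MYCN from -0.41 to 0.55. On day 4 against day 0, CCND3 ran from -0.089 to 0.93.

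Same-numbered libraries of different days deviated together in 21 of 30 pairs (r over 0.1, range -0.21 to 0.63, median 0.23). Libraries of different numbers did so in 17 of 60 pairs (median -0.15). Libraries of a number thus tended to deviate together, though not in every pair. No label states what the numbers mean, so the main fit left them out and the replicate block was an alternative. With the replicate block, calls among all genes went from 956 higher and 850 lower to 1608 and 1305 on day 1, from 857 and 582 to 1298 and 1168 on day 2, and from 115 and 50 to 371 and 219 on day 3; among the 10 genes it added CDKN1A on day 1 (adjusted p = 0.0113) and CCNE2 on day 4 against day 0 (adjusted p = 0.043), and in the joint test CCNE2 (adjusted p = 0.0076) and CDKN1A (adjusted p = 0.0115), so that 9 in place of 7 passed it. DESeq2 called 1447 lower on day 1, 1405 higher and 1053 lower on day 2, 619 and 340 on day 3, and 27 and 39 on day 4 against day 3, where edgeR called 0. The fit of only the days compared called 1506 and 1308 on day 2, 0 and 0 on day 3, and 1798 lower on day 4 against day 0 in place of 2811. Without replicate 1 of days 3 and 4, 57 rose and 11 fell on day 3. Depth limits CDKN2C on days 0 and 1, where it rests on 4 and 8 read pairs.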
